A study of Homo sapiens with 36 samples.

Results

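The genes described here are 10 components and responders of the JAK-STAT pathway, namely the feedback inhibitors SOCS1, SOCS2, SOCS3 and CISH, the serine/threonine kinases PIM1, PIM2 and PIM3, the transcription factors STAT3 and STAT5A, and the receptor-associated kinase JAK2. They were taken by symbol from a table of 37549 gene symbols, in which each of the 10 occurred and passed the filter on low counts in every line. RNA sequencing was done on MEC1, JVM2 and EHEB, 3 established human B-cell lines used as models of chronic lymphocytic leukaemia. MEC1 carries mutated p53, whereas JVM2 and EHEB are p53 wild-type. Cells of each line received the vehicle DMSO, fludarabine at 50 µM, ibrutinib at 5 µM or idelalisib at 10 µM. The exposure lasted 48 h for MEC1, 72 h for JVM2 and 96 h for EHEB. Fludarabine is a purine analogue that blocks DNA synthesis, ibrutinib inhibits Bruton's tyrosine kinase (BTK) and idelalisib inhibits the delta isoform of phosphoinositide 3-kinase (PI3K). There were 3 libraries in each of the 12 groups, made from ribosomal RNA-depleted total RNA. The values of a group are given below in the order of the library numbers in the labels, and the first, the second and the third library of a group refer to that order.

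When a cytokine binds its receptor, receptor-bound JAK kinases phosphorylate STAT proteins, which move to the nucleus and switch on target genes. SOCS proteins and CISH are among those targets, and they bind the receptors or the JAKs and shut the signal down, which makes their transcripts a readout of recent pathway activity as well as a brake on it. PIM kinases are targets of STAT3 and STAT5 too, are active as soon as they are made, and support growth and survival in B-cell malignancies.

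STAT dimers bind palindromes of the form TTCNNNGAA, which reads the same on both strands. This motif was searched in the RefSeq promoter windows (GRCh38.p14, 250 bases before to 50 bases after each start) of the 9 genes that had an entry, all except SOCS2. The CISH window held 4 matches and the windows of the other 8 genes held none. Neither SOCS3 window (78360876 to 78361175 and 78359618 to 78359917) covered the GENCODE 44 start of SOCS3 at 78360077. The sequence around that start was therefore not searched. At least 1 match occurred in 7.66% of all 35116 promoter windows and at least 4 occurred in 7 windows, or 0.0199%. The related spacing TTCNNNNGAA was found once, in a STAT5A window, and is present in 6.44% of all windows. The stretch of the CISH promoter that carries the matches is shown because CISH was the only gene of the 9 with any TTCNNNGAA in the windows searched. It is chr3:50611875-50612024 on the minus strand, upstream of the RefSeq start, and the capitals mark the 4 matches.
CISH: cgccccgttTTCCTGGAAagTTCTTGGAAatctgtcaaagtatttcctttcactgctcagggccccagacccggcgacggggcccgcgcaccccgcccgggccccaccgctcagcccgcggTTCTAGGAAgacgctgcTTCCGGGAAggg
A match of letters in a window is a description and not evidence of binding. CISH itself spans positions 50606489 to 50611774 of chromosome 3 in the GENCODE 44 annotation.

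Counting can be affected where genes overlap, and whether the counting used the strand is not given in the sources used here. In GENCODE 44, SOCS1 (chromosome 16, 11254417 to 11256204, minus strand) overlaps RMI2 on the opposite strand, SOCS2 (chromosome 12, 93569814 to 93583487) overlaps the antisense RNA SOCS2-AS1 and CISH overlaps MAPKAPK3. STAT5A (chromosome 17, 42287547 to 42311943) overlaps STAT5B on the opposite strand, PIM3 (chromosome 22, 49960768 to 49964072) overlaps the microRNA gene MIR6821, and JAK2 (chromosome 9, 4984390 to 5129948) overlaps INSL6 and several pseudogenes. SOCS3 (chromosome 17, 78356778 to 78360077), PIM1 (chromosome 6, 37170152 to 37175428), PIM2 (chromosome X, 48913182 to 48919024) and STAT3 (chromosome 17, 42313324 to 42388540) overlap no annotated gene.

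Library totals ranged from 26591427 to 53541373 counts. Levels are given as counts-per-million values (CPM), normalised within each line by the trimmed mean of M values (TMM). The marker levels in this paragraph and the values per kb of exon further on were instead normalised by TMM over all 36 libraries. The B-cell markers MS4A1, CD79A, CD79B, PAX5 and CD22 were measured in every library, and their summed level was 606 to 1650 CPM. That sum was 881 to 946 CPM in MEC1 with DMSO and 1310 to 1540 with the kinase inhibitors. With fludarabine it fell below every DMSO library of the line in MEC1 (806 to 825), in JVM2 (606 to 677 against 1200 to 1210) and in EHEB (851 to 952 against 1530 to 1590). Of the T-cell and myeloid markers, CD3D did not exceed 0.188 CPM, CD3G 0.215, CD14 0.403 and MPO 0.161. TRAC, in contrast, was at 15.3 to 61.2 CPM and ITGAM at 5.78 to 63. CD3E was at 1.4 to 5.55 CPM in EHEB and CD247 at 1.39 to 3.15 in MEC1. CD33 was at 4.78 to 10.6 CPM in JVM2 and 3.09 to 7.12 in EHEB, and CSF1R reached 5.7 in MEC1. The summed level of the 5 myeloid markers was 6.58 to 8.28 CPM in vehicle-treated MEC1 and 24.6 to 42.3 in the drug-treated MEC1 libraries, mostly from ITGAM. It was 19.6 to 22.6 CPM in JVM2 with DMSO, 50.2 to 51.6 after fludarabine and 46.2 to 49.8 after idelalisib, and in EHEB it was 26 to 30.6 with DMSO and 61.1 to 70.4 after fludarabine. The summed level of the T-cell markers was 36.9 to 42.3 CPM in MEC1 with DMSO, 49.2 to 56.7 after fludarabine and 18 to 21.5 after the kinase inhibitors. In JVM2 it was 56.9 to 61.4 CPM with DMSO and 35.2 to 44.8 after the drugs, and in EHEB 45.9 to 48.1 with DMSO and 21.9 to 28.4 after the kinase inhibitors. The part of these marker shifts in the results was not tested. The 20 most abundant genes took 24.1 to 27% of the counts in MEC1 with idelalisib and 14.4 to 16.9% with DMSO. Mitochondrial transcripts took 0.396 to 0.608% of counts in MEC1 with DMSO and 0.682 to 1.06% in its drug-treated libraries, and 0.42 to 0.467% in JVM2 with DMSO and 0.679 to 1.16% in its drug-treated libraries. In EHEB the share was 1.27 to 1.66% with DMSO, 2.28 to 2.66% after fludarabine, 1.67 to 2.31% after ibrutinib and 1.45 to 2.05% after idelalisib. The part of this share in the results was not tested either. In the labels every DMSO and fludarabine library has a lower number than every ibrutinib and idelalisib library. There is no DMSO or fludarabine library among the later numbers. Whatever went with the numbering therefore cannot be told apart from the difference between either kinase inhibitor and DMSO or fludarabine. Line and time of exposure cannot be told apart either. The labels do not say that replicate libraries came from separate cultures, so the p-values measure the spread between these libraries.

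The levels of the 10 genes in vehicle-treated cells were compared between lines on a scale that also corrects for exon length, CPM per kb. PIM2 was the most abundant of the 10 in every line, at 103 ± 3.11 CPM per kb in MEC1, 391.8 ± 1.29 in JVM2 and 147.7 ± 6.18 in EHEB (SD, n = 3). PIM1 stood at 61.3 ± 2.19 in MEC1 and 54.3 ± 2.41 in JVM2 but at 3.13 ± 0.165 CPM per kb in EHEB. JAK2 was lowest in MEC1, at 1.28 ± 0.155, and reached 4.24 ± 0.292 in JVM2 and 9.88 ± 0.475 CPM per kb in EHEB. Every vehicle library of EHEB therefore had less PIM1 and more JAK2 than any of the other lines. SOCS3 was at 0.684 ± 0.00513 CPM per kb in MEC1, 9.74 ± 0.716 in JVM2 and 5.12 ± 0.574 in EHEB. SOCS2 was at 0.184 ± 0.0711 in MEC1, 0.277 ± 0.0804 in JVM2 and 4.2 ± 2.72 CPM per kb in EHEB, where the first library stood above the other two.

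**Figure D1:**
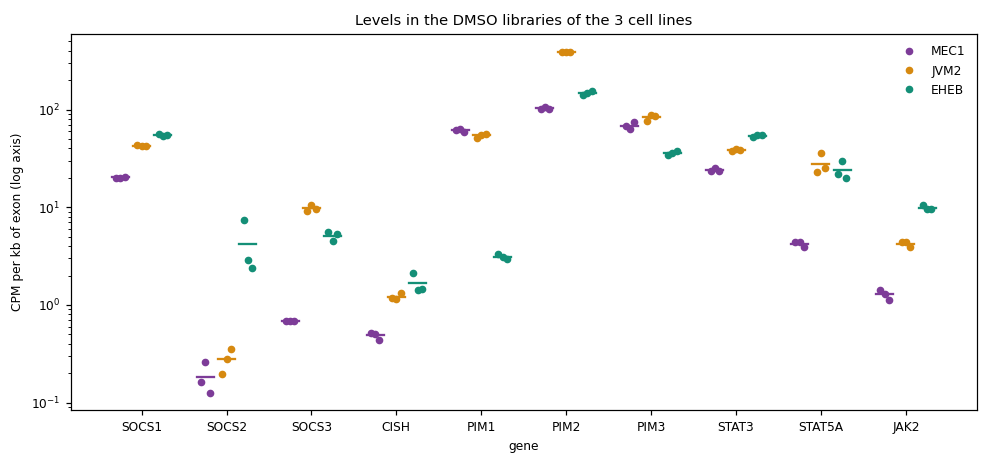
Levels of the 10 genes in the DMSO libraries, as CPM per kb of exon on a log axis, with 1 point per library and a bar at the mean of each line. PIM2 is the highest in each line, PIM1 drops from 61.3 in MEC1 to 3.13 in EHEB, and SOCS3 is lowest in MEC1.

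Within a line, most neighbours in the order of levels were separated by more than their spread. The exceptions in vehicle-treated cells were PIM3 and PIM1 in MEC1, at 62.7 to 74.1 and 58.8 to 63.0 CPM per kb, SOCS1 and STAT3 in EHEB, at 54.0 to 56.1 and 52.5 to 54.7, and SOCS2 in EHEB, whose range of 2.38 to 7.32 took in the levels of SOCS3 and PIM1. Differences between lines were tested with edgeR on the DMSO libraries, with p-values adjusted over all genes tested and genes called at an adjusted p below 0.05. Of the 10 genes, 8 were called higher and 1 lower in JVM2 than in MEC1, where 63.8% of all genes were called (33.7% higher and 30.1% lower). In EHEB against MEC1, 8 were called higher and 2 lower, beside 67.4% of all genes (35.8% higher and 31.6% lower), and in EHEB against JVM2, 5 were called higher and 4 lower, beside 59.6% of all genes (29.9% higher and 29.6% lower). Among the largest differences, PIM1 was lower in EHEB than in MEC1 (log2 fold change -4.26 ± 0.0659, SE, adjusted p = 6.53e-10), SOCS2 was higher in EHEB than in MEC1 with 4.47 ± 0.505 (adjusted p = 4.72e-05), and SOCS3 was higher in JVM2 than in MEC1 with 3.81 ± 0.116 (adjusted p = 1.22e-08). STAT5A was 2.73 ± 0.197 higher in JVM2 than in MEC1 on the log2 scale (adjusted p = 2.62e-06), and in EHEB against JVM2 it gave -0.22 (95% interval -0.635 to 0.204, adjusted p = 0.344). The single gene called lower in JVM2 than in MEC1 was PIM1, at -0.16 (adjusted p = 0.0328), a call lost in 5 of the 9 fits that left out 1 library, with an adjusted p of up to 0.116 without the first JVM2 library.

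Each drug was then compared with DMSO in its own line. With fludarabine, 9 of the 10 genes were called in MEC1 (5 higher and 4 lower, beside 43.9% of all genes, 21.2% higher and 22.7% lower), 8 in JVM2 (5 higher and 3 lower, beside 47.2%, 23.9% and 23.3%) and 7 in EHEB (3 higher and 4 lower, beside 37.5%, 18.4% and 19.2%). With ibrutinib, 7 were called in MEC1 (2 higher and 5 lower, beside 47.6%, 23.7% and 23.9%), 5 in JVM2 (2 higher and 3 lower, beside 29.4%, 14.5% and 15%) and 5 in EHEB (2 higher and 3 lower, beside 19.7%, 8.5% and 11.2%). With idelalisib, 7 were called in MEC1 (1 higher and 6 lower, beside 55%, 27.6% and 27.4%), 8 in JVM2 (2 higher and 6 lower, beside 44.2%, 21.6% and 22.6%) and 6 in EHEB (2 higher and 4 lower, beside 33.3%, 15.1% and 18.2%). The share of the 10 genes that was called exceeded the share of all genes in each of the 9 comparisons, and since the genes were chosen with earlier results known no test was made of that excess. The share of all genes depends on their level. With a mean CPM of at least 5 required, 7451 of 10970 genes were called with idelalisib in MEC1 and 6571 with ibrutinib, in place of 9640 and 8343 of 17516. The 10 genes were not compared with genes of a like level. The median log2 change over the 10 genes was 0.34 (fludarabine), -0.36 (ibrutinib) and -0.67 (idelalisib) in MEC1, 0.30, -0.21 and -0.24 in JVM2, and -0.06, 0.04 and -0.14 in EHEB. The medians over all genes lay between 0.00 and 0.08. Without TMM scaling, the share of all called genes that were higher went for fludarabine from 48.4%, 50.6% and 48.9% (MEC1, JVM2, EHEB) to 74.1%, 69.1% and 61.8%. For ibrutinib it went from 49.7% to 56.8% (MEC1), 49.1% to 62.2% (JVM2) and 43.1% to 65.4% (EHEB). For idelalisib it went up from 48.8% to 59.5% (JVM2) and 45.3% to 59.6% (EHEB) and down from 50.2% to 43.6% (MEC1). The 3 drug comparisons of a line share its DMSO libraries and are not independent of each other. In these bulk samples, fewer cells of a kind and less RNA per cell cannot be told apart.

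**Figure D2:**
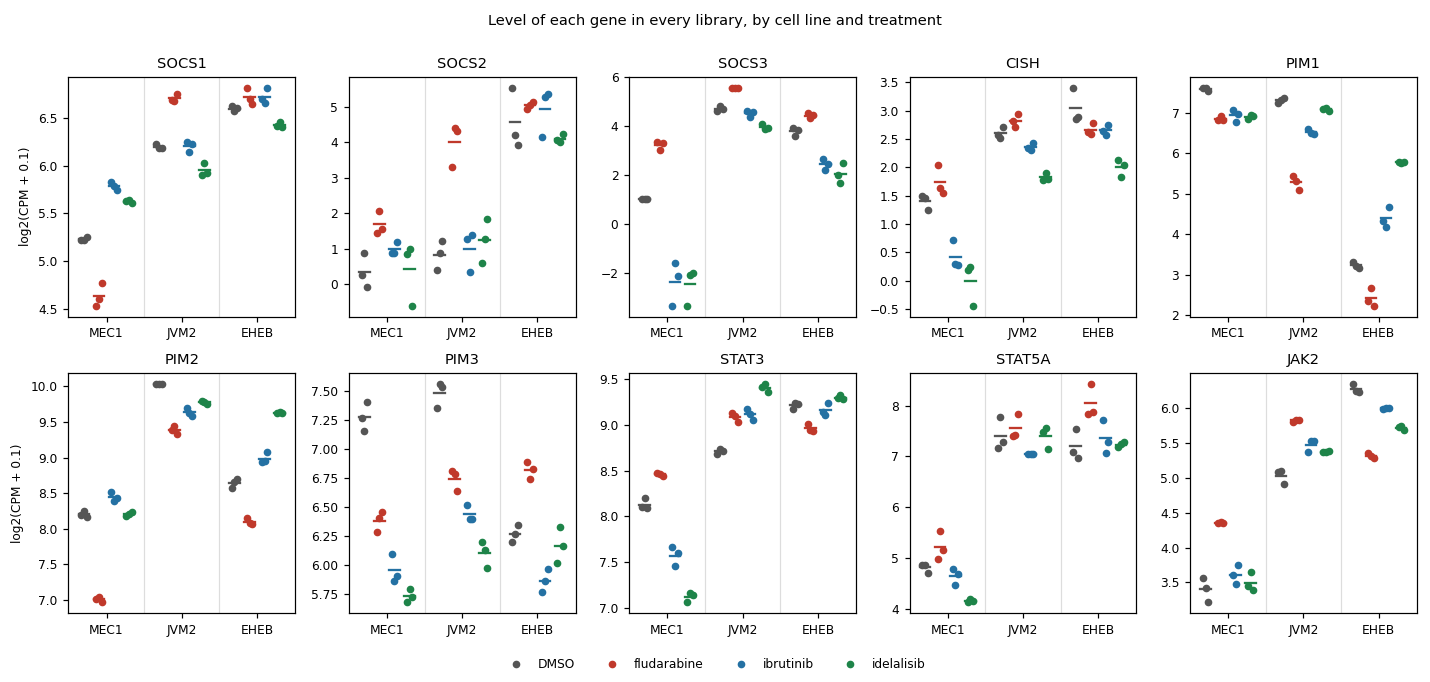
Level of each of the 10 genes in every library, as log2(CPM + 0.1), with 1 point per library, a bar at the mean of each group and colours for the 4 treatments. SOCS3 separates widely by treatment in MEC1, PIM1 is higher in EHEB with ibrutinib and idelalisib, and the DMSO replicates of SOCS2 in EHEB spread from 15.2 to 46.6 CPM.

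SOCS3, which binds JAKs and the gp130 receptor chain and is a principal brake on STAT3 signalling, moved up with fludarabine in all 3 lines and down with both kinase inhibitors in MEC1 and EHEB and with idelalisib in JVM2. In MEC1 its CPM was 1.95, 1.92 and 1.94 with DMSO, 10.2, 8.09 and 9.86 after fludarabine, 0, 0.238 and 0.131 after ibrutinib, and 0, 0.142 and 0.152 after idelalisib. No library of any drug group overlapped the DMSO libraries. Fludarabine raised SOCS3 by 2.25 ± 0.487 on the log2 scale (4.84-fold, adjusted p = 0.00309), and the fitted values for ibrutinib and idelalisib were -3.56 ± 0.568 (adjusted p = 0.000354) and -3.71 ± 0.589 (adjusted p = 0.000253).

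The low end of SOCS3 in MEC1 rests on few reads, since its counts summed over the 3 libraries were 236 with DMSO, 963 after fludarabine, 16 after ibrutinib and 12 after idelalisib. The deposited counts are estimates, and small ones were enriched at rounded-up multiples of about 2.67, which held 47.1% of all counts from 2 to 27 and make up 38.5% of the whole numbers in that range. If each fragment gave about 2.67 counts, the SOCS3 sums would stand for about 88, 361, 6 and 4 fragments. On that assumption, levels were pooled over a group's libraries with TMM scaling and given 95% exact Poisson intervals, which cover counting error only. The pooled levels were 1.92 CPM (1.54 to 2.37) with DMSO, 0.116 (0.0426 to 0.252) with ibrutinib and 0.0924 (0.0252 to 0.237) with idelalisib. The intervals of the inhibitor groups lie below that of DMSO and overlap each other, and the fitted fold changes of these groups depend on the prior count.

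In JVM2, SOCS3 stood at 24.2, 27.8 and 25.4 CPM with DMSO, 46.6, 47.1 and 45.98 after fludarabine, 24.6, 20.6 and 23.8 after ibrutinib, and 16.9, 14.8 and 15.1 after idelalisib. The ibrutinib libraries overlapped DMSO, whereas those of fludarabine were all higher and those of idelalisib all lower. The log2 changes were 0.85 ± 0.0833 with fludarabine (adjusted p = 9.71e-06), -0.17 with ibrutinib (95% interval -0.351 to 0.0167, adjusted p = 0.165) and -0.73 ± 0.0839 with idelalisib (adjusted p = 4.51e-05). In EHEB, SOCS3 was at 14.9, 12.01 and 14.3 CPM with DMSO, 22.8, 19.9 and 21.4 after fludarabine, 6.13, 4.54 and 5.35 after ibrutinib, and 3.91, 3.08 and 5.53 after idelalisib. All fludarabine libraries lay above the DMSO libraries and all inhibitor libraries below them. SOCS3 fell by 1.35 ± 0.189 on the log2 scale with ibrutinib (adjusted p = 0.000568), to 38.8% of DMSO, and by 1.72 ± 0.193 with idelalisib (adjusted p = 5.06e-05), to 30.3%. The rise with fludarabine was 0.63 ± 0.184 (adjusted p = 0.0187), and leaving out the second DMSO library or the first or the third fludarabine library moved its adjusted p to between 0.0515 and 0.0786. The response of SOCS3 differed between lines for fludarabine (interaction test over the 3 lines, adjusted p = 3.8e-07), ibrutinib (5.84e-05) and idelalisib (4.41e-05). Those tests were called for 9 of the 10 genes with fludarabine (39.1% of all genes), 8 with ibrutinib (33.6%) and 8 with idelalisib (45.7%).

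CISH, which competes with STAT5 for docking sites on cytokine receptors, fell with idelalisib in all 3 lines. In MEC1 its CPM was 2.72, 2.65 and 2.28 with DMSO, 1.54, 1.12 and 1.11 with ibrutinib, and 1.04, 1.09 and 0.634 with idelalisib. In JVM2 it was 5.85, 5.62 and 6.47 with DMSO and 3.32, 3.62 and 3.38 with idelalisib. In EHEB it was 10.5, 7.13 and 7.32 with DMSO and 4.26, 3.45 and 4.04 with idelalisib. The idelalisib libraries lay below the DMSO libraries throughout, and the log2 changes were -1.43 ± 0.245 in MEC1 (adjusted p = 0.000454), -0.79 ± 0.1 in JVM2 (adjusted p = 9.02e-05) and -1.08 ± 0.159 in EHEB (adjusted p = 0.00036). With ibrutinib CISH fell in MEC1, by 0.99 ± 0.239 (adjusted p = 0.00531), and the estimates were -0.25 in JVM2 (adjusted p = 0.0903) and -0.42 in EHEB (adjusted p = 0.0871). Fludarabine gave no call for CISH, with 0.35 in MEC1 (adjusted p = 0.252), 0.22 in JVM2 (adjusted p = 0.0866) and -0.41 in EHEB (adjusted p = 0.0627). Without TMM scaling the JVM2 value became 0.42 (adjusted p = 0.00627), and with a mean CPM of at least 5 required it was 0.28 (adjusted p = 0.0281). Without the second DMSO library the EHEB value became -0.51 (adjusted p = 0.0413), and without the third it was -0.50 (adjusted p = 0.048). The idelalisib response of CISH did not pass the test of a difference between lines (adjusted p = 0.103). The overlapping gene MAPKAPK3 fell with idelalisib in EHEB (-0.67, adjusted p = 0.000713) and gave -0.20 in MEC1 (adjusted p = 0.196) and -0.19 in JVM2 (adjusted p = 0.143).

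SOCS1, an inhibitor that blocks the JAK catalytic site and is induced by interferons, changed less than SOCS3 and in a line-dependent way. In MEC1 it was at 37.2, 37.2 and 37.9 CPM with DMSO, 23.0, 24.3 and 27.1 after fludarabine, 56.7, 55.2 and 53.6 after ibrutinib, and 49.4, 49.8 and 48.6 after idelalisib. The 4 groups did not overlap. SOCS1 fell by 0.59 ± 0.0667 with fludarabine (adjusted p = 3.1e-05) and rose by 0.56 ± 0.0661 with ibrutinib (adjusted p = 3.95e-05) and 0.40 ± 0.0661 with idelalisib (adjusted p = 0.000368), the opposite of SOCS3 in the same libraries. In JVM2, SOCS1 was at 74.7, 72.9 and 72.8 CPM with DMSO, 103, 102 and 108 with fludarabine, and 60.0, 65.2 and 60.7 with idelalisib. There fludarabine raised it by 0.51 ± 0.0493 (adjusted p = 8.87e-06) and idelalisib lowered it (-0.25 ± 0.0493, adjusted p = 0.00197; 0.0677 without TMM scaling). In EHEB its levels stayed between 84.9 and 113 CPM in all 12 libraries, and the only call was -0.17 with idelalisib (adjusted p = 0.0394), which was lost in 9 of the 12 fits that left out 1 library. The fludarabine and ibrutinib libraries of EHEB all lay above DMSO, at 0.125 (adjusted p = 0.116) and 0.129 (adjusted p = 0.149). Without TMM scaling these became 0.231 (adjusted p = 0.00218) and 0.228 (adjusted p = 0.00535). With a mean CPM of at least 5 required, the adjusted p was 0.0168 and 0.0381. RMI2, which overlaps SOCS1, fell in MEC1 with ibrutinib (-1.01, adjusted p = 0.000106) and with idelalisib (-1.13, adjusted p = 3.35e-05), where SOCS1 rose.

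SOCS2, an inhibitor of growth hormone and STAT5 signalling, was low in MEC1 and JVM2. In JVM2 it stood at 1.23, 1.75 and 2.24 CPM with DMSO and at 9.77, 21.2 and 19.9 with fludarabine. This was the largest rise of the set, 9.75-fold (log2 fold change 3.24 ± 0.415, adjusted p = 7.33e-05). In MEC1 SOCS2 went from 1.10, 1.76 and 0.845 CPM with DMSO to 2.61, 4.11 and 2.88 with fludarabine, a log2 change of 1.33 ± 0.402 (adjusted p = 0.0191). Without the first or the third DMSO library or the second fludarabine library the adjusted p was 0.0633, 0.0719 or 0.0739. In EHEB the DMSO libraries stood at 46.6, 18.4 and 15.2 CPM and the fludarabine libraries at 30.8, 33.0 and 34.8, so the groups overlapped through the first DMSO library. The fludarabine estimate in EHEB was 0.30 (95% interval -0.565 to 1.16, adjusted p = 0.597), and without that library it was 0.96 (adjusted p = 0.0309). No comparison of a kinase inhibitor with DMSO was called for SOCS2, and the intervals were wide, from -1.51 to 0.232 for idelalisib in EHEB. The antisense RNA SOCS2-AS1 gave 1.26 with fludarabine in JVM2 (adjusted p = 0.0665).

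**Figure D3:**
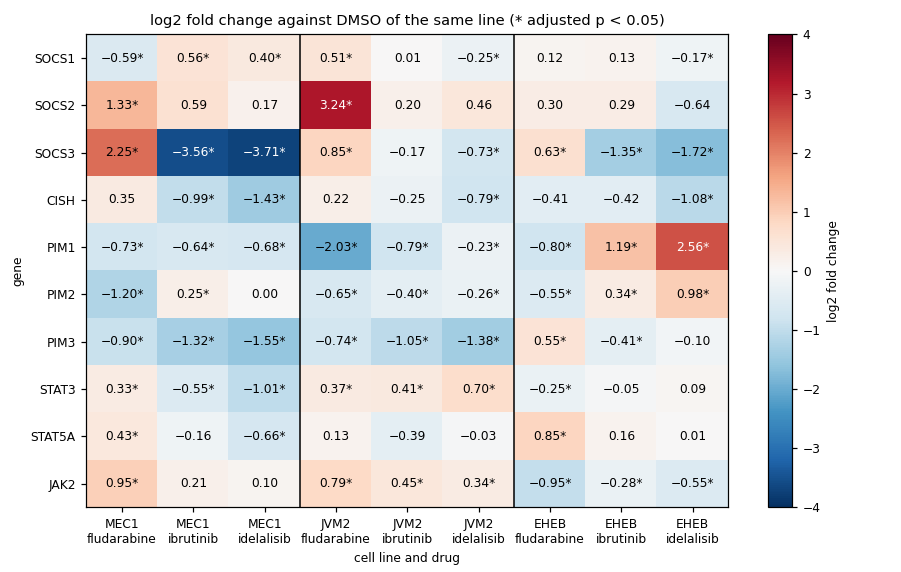
Log2 fold change against DMSO for the 10 genes (vertical) in the 9 combinations of line and drug (horizontal), coloured from blue (lower) to red (higher), with an asterisk at an adjusted p below 0.05. SOCS3 is at -3.56 and -3.71 with the inhibitors in MEC1, and PIM1 is red in EHEB with ibrutinib (1.19) and idelalisib (2.56).

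Among the PIM kinases, PIM1 was called in all 9 comparisons, lower in 7 and higher in 2. In JVM2 it was at 152.5, 161 and 166 CPM with DMSO, 43.2, 39.9 and 34.1 after fludarabine, 96.3, 90.4 and 89.3 after ibrutinib, and 137, 140.2 and 132 after idelalisib. Every drug library was below every DMSO library. Fludarabine left 24.5% of the DMSO level (log2 fold change -2.03 ± 0.0799, adjusted p = 8.52e-09) and ibrutinib 57.6% (-0.79 ± 0.0772, adjusted p = 3.91e-05). The smaller difference with idelalisib, -0.23 ± 0.0767 (adjusted p = 0.0339), was lost in 8 of the 12 fits that left out 1 library, with an adjusted p of up to 0.115, and was -0.12 without TMM scaling (adjusted p = 0.117).

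In MEC1, PIM1 was at 195, 197 and 185.1 CPM with DMSO, 112, 122 and 113 after fludarabine, 134.8, 109.6 and 126.1 after ibrutinib, and 115, 124 and 122 after idelalisib. The 3 drug groups overlapped each other and lay below DMSO, with log2 changes of -0.73 ± 0.0753 (adjusted p = 1.59e-05), -0.64 ± 0.0751 (adjusted p = 3.7e-05) and -0.68 ± 0.0752 (adjusted p = 1.56e-05). EHEB, the line with little PIM1, differed. There PIM1 was at 9.82, 9.26 and 8.87 CPM with DMSO, 4.99, 6.34 and 4.61 after fludarabine, 19.9, 18.1 and 25.7 after ibrutinib, and 55.1, 54.5 and 55.6 after idelalisib. The 4 groups of EHEB did not overlap. PIM1 fell by 0.80 ± 0.141 with fludarabine (adjusted p = 0.000945) and rose 2.28-fold with ibrutinib (1.19 ± 0.138, adjusted p = 0.000165) and 5.91-fold with idelalisib (2.56 ± 0.143, adjusted p = 3.1e-07). The test of a difference between lines gave an adjusted p of 9.46e-13 for idelalisib, the smallest of the 10 genes for any drug, and 3.02e-07 for ibrutinib.

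PIM2, whose product supports protein synthesis in B-lineage cells, fell with fludarabine in every line. In MEC1 it was at 293, 304 and 287.7 CPM with DMSO, 129, 131 and 125 after fludarabine, 367, 337 and 344 after ibrutinib, and 289.6, 295 and 301 after idelalisib. The fludarabine libraries were all lower and the ibrutinib libraries all higher, while idelalisib overlapped DMSO. The changes were -1.20 ± 0.0507 (adjusted p = 6.5e-08), 0.25 ± 0.0499 (adjusted p = 0.00185) and 0.00 (95% interval -0.107 to 0.112, adjusted p = 0.969). With a mean CPM of at least 5 required, the idelalisib value in MEC1 became 0.124 and was called (adjusted p = 0.0268). In JVM2, where PIM2 is most abundant, it was at 1049, 1049 and 1050 CPM with DMSO, 670, 696 and 642 after fludarabine, 830.1, 794 and 767 after ibrutinib, and 891, 882 and 859 after idelalisib. All drug libraries lay below DMSO there, with changes of -0.65 ± 0.0412 (adjusted p = 3.17e-07), -0.40 ± 0.0411 (adjusted p = 5.8e-05) and -0.26 ± 0.041 (adjusted p = 0.000431). In EHEB, PIM2 was at 383, 403 and 417 CPM with DMSO, 285.5, 270.3 and 268 after fludarabine, 488, 496 and 539 after ibrutinib, and 790.4, 799 and 788.5 after idelalisib. The order of the groups was that of PIM1 in EHEB, with a fall of 0.55 ± 0.0505 for fludarabine (adjusted p = 7.87e-06) and rises of 0.34 ± 0.0504 for ibrutinib (adjusted p = 0.000825) and 0.98 ± 0.0508 for idelalisib (adjusted p = 1.77e-07).

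PIM3, the third kinase of the family, fell with all drugs in MEC1 and JVM2. In MEC1 it was at 154, 142.5 and 169 CPM with DMSO, 77.7, 84.7 and 87.6 after fludarabine, 68.3, 57.9 and 59.8 after ibrutinib, and 51.2, 55.3 and 52.8 after idelalisib. In JVM2 it was at 163 to 188 CPM with DMSO, 112, 110 and 99.5 after fludarabine, 91.6, 84.0 and 83.9 after ibrutinib, and 73.3, 69.8 and 62.8 after idelalisib. In both lines the groups stood apart in the order DMSO, fludarabine, ibrutinib and idelalisib. The step from ibrutinib to idelalisib was not called in MEC1 (-0.225, adjusted p = 0.1; 0.00805 without TMM scaling). The idelalisib changes were -1.55 ± 0.0852 in MEC1 (adjusted p = 1.09e-07) and -1.38 ± 0.0785 in JVM2 (adjusted p = 2.46e-07), leaving 34.2% and 38.4% of the vehicle level. In EHEB, PIM3 was at 73.4, 76.8 and 81.1 CPM with DMSO, 118, 107 and 113.5 after fludarabine, 54.4, 57.9 and 62.3 after ibrutinib, and 64.6, 80.1 and 71.4 after idelalisib. Here fludarabine raised PIM3 by 0.55 ± 0.0834 (adjusted p = 0.000332), ibrutinib lowered it (-0.41 ± 0.0834, adjusted p = 0.00602), and idelalisib overlapped DMSO (-0.10, 95% interval -0.281 to 0.086, adjusted p = 0.409). PIM3 and PIM1 thus had opposite signs in EHEB with fludarabine and with ibrutinib.

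STAT3, which carries signals of the interleukin-6 and interleukin-10 receptors, was the more abundant of the STATs chosen. In MEC1 it was at 274.5, 293 and 273 CPM with DMSO, 354, 353.5 and 348 after fludarabine, 203.5, 175 and 193 after ibrutinib, and 133.8, 142.9 and 141.6 after idelalisib. The 4 groups did not overlap, and STAT3 rose with fludarabine (0.33 ± 0.0613, adjusted p = 0.00115) and fell with ibrutinib (-0.55 ± 0.0615, adjusted p = 2.4e-05) and idelalisib (-1.01 ± 0.0619, adjusted p = 2.16e-07). In JVM2 it was at 412, 426 and 419 CPM with DMSO, 559, 547 and 523 after fludarabine, 578, 555 and 533 after ibrutinib, and 680.2, 698 and 658 after idelalisib. All drug libraries were above DMSO in JVM2, with 0.37 ± 0.0425 (adjusted p = 3.01e-05), 0.41 ± 0.0425 (adjusted p = 6.24e-05) and 0.70 ± 0.0427 (adjusted p = 4.16e-07). In EHEB the call was for fludarabine, -0.25 ± 0.0452 (adjusted p = 0.00111), with -0.05 for ibrutinib (adjusted p = 0.481) and 0.09 for idelalisib (adjusted p = 0.177). All idelalisib libraries of EHEB lay above DMSO, at 622.1 to 640.6 against 577.7 to 602.6 CPM. Without TMM scaling that value became 0.185 (adjusted p = 0.00164), and with a mean CPM of at least 5 required it was 0.131 (adjusted p = 0.0154). The idelalisib response of STAT3 differed between lines with an adjusted p of 9.55e-11.

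STAT5A, which transmits interleukin-2 family and growth hormone signals, had wide replicate spread. With DMSO it was at 29.2, 29.0 and 26.0 CPM in MEC1, 143.9, 219.7 and 155 in JVM2, and 137, 187 and 124 in EHEB. In EHEB the fludarabine libraries stood at 229, 344 and 235 CPM, above all DMSO libraries (0.85 ± 0.204, adjusted p = 0.00665). In MEC1 idelalisib gave 17.4, 18.1 and 17.8 CPM, below all DMSO libraries (-0.66 ± 0.131, adjusted p = 0.00129). The MEC1 fludarabine libraries, at 31.3, 46.3 and 35.7 CPM, gave 0.43 ± 0.13 (adjusted p = 0.0204), with an adjusted p of 0.0867 without the second fludarabine library and 0.0772 without the third DMSO library. No drug was called for STAT5A in JVM2, where the 95% interval for ibrutinib was -0.765 to -0.0214 before adjustment (adjusted p = 0.108). STAT5B, its close paralogue on the neighbouring locus, was called lower in 8 of the 9 comparisons, among them fludarabine in EHEB (-0.19, adjusted p = 0.0298) and in MEC1 (-0.42, adjusted p = 0.00143), where STAT5A was called higher. How reads shared by the paralogues were assigned is not given in the sources used here.

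JAK2, the kinase bound to receptors of the erythropoietin, growth hormone and interferon-gamma type, rose with fludarabine in MEC1 and JVM2 and fell in EHEB. In MEC1 it went from 11.7, 10.6 and 9.21 CPM to 20.2, 20.4 and 20.3, a rise of 0.95 ± 0.111 (adjusted p = 4.32e-05). In JVM2 it went from 33.7, 33.9 and 29.9 CPM to 55.5, 56.7 and 56.6, a rise of 0.79 ± 0.0631 (adjusted p = 1.92e-06). In EHEB, which had the most JAK2, it went from 81.0, 75.1 and 74.5 CPM to 40.5, 39.5 and 38.9, a log2 change of -0.95 ± 0.0516 (adjusted p = 1.48e-07). The difference between lines had an adjusted p of 1.99e-09, the smallest of the 10 genes for fludarabine. The kinase inhibitors gave the same signs at smaller sizes in JVM2 and EHEB. Ibrutinib and idelalisib gave 41.2, 45.96 and 45.95 CPM and 41.2, 41.1 and 41.4 CPM in JVM2 (0.45 ± 0.0629, adjusted p = 0.000413, and 0.34 ± 0.0629, adjusted p = 0.00111). In EHEB they gave 63.1, 63.7 and 63.6 CPM and 52.5, 53.3 and 51.1 CPM (-0.28 ± 0.051, adjusted p = 0.00324, and -0.55 ± 0.0512, adjusted p = 1.15e-05). Neither inhibitor was called in MEC1, with 0.21 (adjusted p = 0.14) and 0.10 (adjusted p = 0.483). With a mean CPM of at least 5 required, the ibrutinib value became 0.29 (adjusted p = 0.0359).

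The groups treated with idelalisib and ibrutinib were compared directly, since both drugs act downstream of the B-cell receptor and their libraries belong to the same numbering. The doses differed, so the comparison is between the groups as treated. In MEC1, 3 of the 10 genes were called, all lower with idelalisib, beside 15.4% of all genes (6.01% higher and 9.37% lower). In JVM2, 3 were called higher and 4 lower, beside 18.7% of all genes (8.21% higher and 10.5% lower), and in EHEB 3 were higher and 3 lower, beside 15.9% (6.77% higher and 9.09% lower). PIM1 had the largest difference, 2.59-fold higher with idelalisib in EHEB (log2 fold change 1.37 ± 0.136, adjusted p = 7.09e-05) and 0.57 ± 0.077 higher on the log2 scale in JVM2 (adjusted p = 0.000547), with -0.04 in MEC1 (95% interval -0.206 to 0.124, adjusted p = 0.807). PIM2 was higher with idelalisib in EHEB (0.64 ± 0.0505, adjusted p = 1.74e-05) and lower in MEC1 (-0.24 ± 0.0499, adjusted p = 0.00868; 0.065 on the 6 libraries compared). Its call in JVM2 (0.14, adjusted p = 0.0379) was lost in 9 of the 12 fits that left out 1 library. CISH was lower with idelalisib in JVM2 (-0.54 ± 0.1, adjusted p = 0.00373) and in EHEB (-0.66 ± 0.159, adjusted p = 0.0161), where the adjusted p was 0.0674 without the second idelalisib library and 0.0594 without the third ibrutinib library. SOCS3 was lower in JVM2 (-0.56 ± 0.0838, adjusted p = 0.00106; 0.118 in a joint fit of the 3 lines), and in MEC1 its estimate was -0.15 with a wide interval (-1.57 to 1.28, adjusted p = 0.933). STAT3 was lower with idelalisib in MEC1 (-0.45 ± 0.0615, adjusted p = 0.00142) and higher in JVM2 (0.29 ± 0.0425, adjusted p = 0.000941). In EHEB STAT3 gave 0.137 (adjusted p = 0.066). It was called there under several alternatives, among them no TMM scaling (adjusted p = 0.0186) and a mean CPM of at least 5 (0.159, adjusted p = 0.0105). STAT5A was lower in MEC1 (-0.50 ± 0.131, adjusted p = 0.0268), a call that was lost without the first or the third library of either drug (adjusted p = 0.0648 to 0.0877). PIM3 was lower in JVM2 (-0.33 ± 0.0773, adjusted p = 0.0124; 0.0526 without the first ibrutinib library) and higher in EHEB (0.31 ± 0.0834, adjusted p = 0.0287), where leaving out the first or second ibrutinib or the second or the third idelalisib library moved the adjusted p to between 0.066 and 0.111. JAK2 was lower in EHEB (-0.28 ± 0.0512, adjusted p = 0.00375), and SOCS1 was lower in JVM2 (-0.26 ± 0.0493, adjusted p = 0.00462) and EHEB (-0.30 ± 0.0577, adjusted p = 0.00471).

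**Figure D4:**
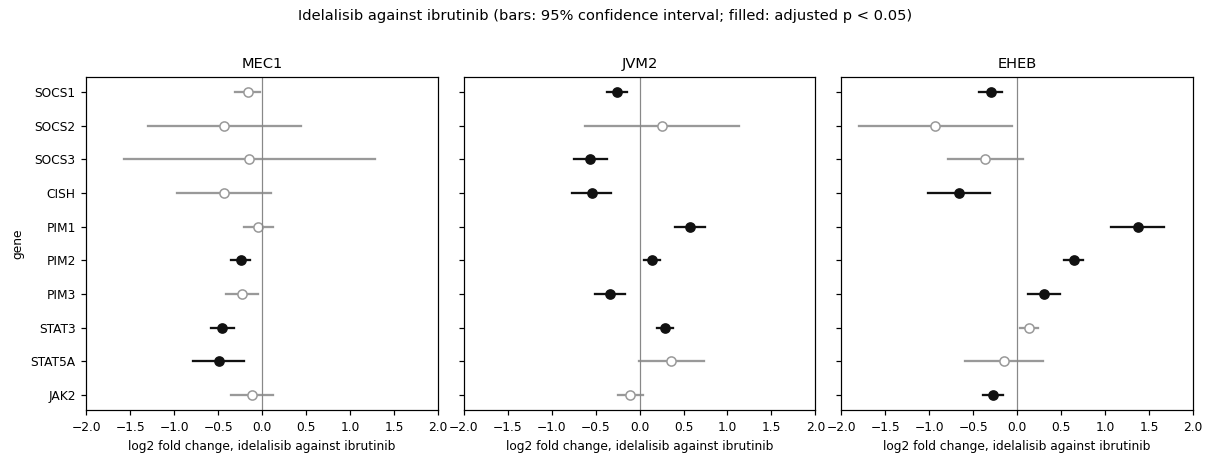
Log2 fold change of idelalisib against ibrutinib (horizontal) for the 10 genes (vertical) in the 3 lines, with bars for the 95% confidence interval and filled points at an adjusted p below 0.05. PIM1 in EHEB is farthest from 0 at 1.37, and the intervals of SOCS2 and of SOCS3 in MEC1 are the widest.

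Against fludarabine, ibrutinib was called for 8 of the 10 genes in MEC1 (2 higher and 6 lower, beside 51.4% of all genes, 25.4% higher and 26% lower), 9 in JVM2 (2 and 7, beside 42.7%, 21.7% and 20.9%) and 7 in EHEB (4 and 3, beside 33.3%, 16.6% and 16.7%). Idelalisib against fludarabine was called for 9 in MEC1 (2 higher and 7 lower, beside 56.2%, 26.9% and 29.3%), 9 in JVM2 (3 and 6, beside 41.1%, 20.7% and 20.4%) and 9 in EHEB (4 and 5, beside 42.7%, 20.3% and 22.5%). In these comparisons too, the library numbering cannot be told apart from the drugs. SOCS3 was lower with idelalisib than with fludarabine in every line, with log2 fold changes of -5.95 (MEC1), -1.58 (JVM2) and -2.35 (EHEB). PIM2 was higher with idelalisib than with fludarabine in every line, at 1.20, 0.39 and 1.53, and so was PIM1 in JVM2 (1.80) and EHEB (3.36), whereas in MEC1 PIM1 gave 0.05 (adjusted p = 0.568).

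The rest of the pathway was described against DMSO by lists of ligands, receptors, further JAK, STAT and SOCS genes, other inhibitors, other STAT targets and PIM substrates. From each list at most 3 genes were named by the number of comparisons in which they were called, and the calls of the other receptors were added. Every change given for them passed the test unless said otherwise. Of the 12 cytokine ligands, 7 in MEC1 and 9 in each of the other lines were expressed enough to be tested. IFNG, interferon gamma, rose with fludarabine in MEC1 (log2 fold change 3.53), JVM2 (5.27) and EHEB (2.61), and fell with ibrutinib in JVM2 (-1.97) and EHEB (-2.20) and with idelalisib in EHEB (-2.45). In MEC1 with idelalisib, where SOCS3 fell and SOCS1 rose, IFNG rose (1.37). In MEC1 with fludarabine, IFNG and SOCS3 rose and SOCS1 fell. The part of IFNG in the changes of SOCS1 and SOCS3 was not tested. IL15, a ligand that signals through JAK1 and JAK3, was called higher in 5 comparisons and lower in none, most with idelalisib in MEC1 (1.37). LIF, a ligand of the gp130 family, rose with fludarabine in JVM2 (2.51) and EHEB (3.11) and was not tested in MEC1. LIF fell with ibrutinib in JVM2 (-1.04) and with idelalisib in JVM2 (-1.86) and EHEB (-1.18), and it was not called with ibrutinib in EHEB, so it was called higher in 2 comparisons and lower in 3. Of the 16 receptor genes, IL13RA1 was called higher in 8 of the 9 comparisons and lower in 1, and IFNAR1 was called higher in 7. IL6ST, which encodes gp130, was called higher in 5 and lower in 2. Among the other receptors, IL10RA was called higher in 5 and lower in none. IL2RB was called lower in 6, IL15RA in 3, and IFNGR1 and IL7R in 2 each, and none of these was called higher. IL2RA, IL21R, IFNAR2 and IFNGR2 were called in both directions, and IL2RG, IL4R, IL6R and IL10RB were never called.

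Of the 3 other JAK genes, JAK1 and JAK3 fell with idelalisib in MEC1 (-0.47 and -0.84) and rose with it in JVM2 (0.63 and 0.21) and EHEB (0.50 and 0.35). JAK1 was called higher in 2 comparisons and lower in 4, and JAK3 higher in 5 and lower in 2. TYK2 was called higher in 6 comparisons, which were all those with fludarabine, both inhibitors in JVM2 (0.62 and 0.61) and ibrutinib in EHEB (0.32), and lower in 1, idelalisib in MEC1 (-0.56). Of the other STAT genes, STAT2, which carries type I interferon signals, rose with fludarabine in MEC1 (0.45) and JVM2 (1.13) and fell in EHEB with every drug, at -0.53 for fludarabine, -0.75 for ibrutinib and -0.74 for idelalisib. STAT2 also fell in MEC1 after idelalisib (-0.23). STAT6 was called higher in 8 comparisons and lower in none.

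Further genes were listed as inhibitors of the pathway, and whether each acts as a brake in these cells was not tested. SOCS7, of the 4 other SOCS genes, fell in MEC1 with every drug (-0.90, -1.55 and -2.24 for fludarabine, ibrutinib and idelalisib) and JVM2 (-0.38, -0.35 and -0.47) and rose in EHEB after idelalisib (0.26). PTPN11, a tyrosine phosphatase placed in the list of other inhibitors, was called lower in all 9 comparisons, between -1.10 and -0.13, and PTPN6 was called lower in 7. SH2B3, an adaptor that restrains JAK2, was called lower in 6 and higher in 2, both in JVM2 with a kinase inhibitor (0.55 and 0.66). Of the 9 genes of that list of inhibitors, 1 was called higher and 5 lower with fludarabine in MEC1, 1 and 6 in JVM2, and 0 and 5 in EHEB, with medians of -0.22, -0.21 and -0.14 beside medians of 0.05, 0.06 and 0.02 over all genes. Over all genes fludarabine gave 21.2% called higher and 22.7% lower (MEC1), 23.9% and 23.3% (JVM2), and 18.4% and 19.2% (EHEB). With ibrutinib the counts of inhibitors called higher and lower were 2 and 4, 3 and 3, and 1 and 3 (MEC1, JVM2, EHEB), with medians of -0.16, -0.07 and -0.09. The shares of all genes were 23.7% and 23.9%, 14.5% and 15%, and 8.5% and 11.2%. Idelalisib gave 2 and 6, 4 and 3, and 2 and 4, with medians of -0.49, -0.11 and -0.18, beside 27.6% and 27.4%, 21.6% and 22.6%, and 15.1% and 18.2% of all genes. The 9 genes of that list were thus called in both directions in all but the EHEB comparison of fludarabine, and in JVM2 the counts for the kinase inhibitors did not lean to lower.

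Most of the 8 other STAT targets that were called were higher with fludarabine, and with the inhibitors more were called lower than higher except in JVM2 with idelalisib. With fludarabine 6 were called higher and 0 lower in MEC1 (median 0.62), 7 and 0 in JVM2 (median 0.74) and 5 and 3 in EHEB (median 0.22). The shares of all genes called higher and lower were 21.2% and 22.7%, 23.9% and 23.3%, and 18.4% and 19.2%. With ibrutinib the counts were 3 and 4, 0 and 3, and 0 and 5, with medians of -0.13, -0.06 and -0.32 beside 0.06, 0.00 and 0.01 over all genes, of which 23.7% and 23.9%, 14.5% and 15%, and 8.5% and 11.2% were called. With idelalisib they were 1 and 5, 3 and 3, and 0 and 4, with medians of -0.76, -0.09 and -0.22 beside 0.08, 0.03 and 0.01 over all genes, of which 27.6% and 27.4%, 21.6% and 22.6%, and 15.1% and 18.2% were called. JUNB, an AP-1 transcription factor, rose with fludarabine in every line (0.79, 0.40 and 0.24 in MEC1, JVM2 and EHEB) and fell with idelalisib in every line (-0.96, -0.75 and -0.73) and with ibrutinib in every line (-0.26, -0.41 and -0.34). BCL6, a transcriptional repressor of germinal centre B cells, rose with fludarabine in JVM2 by 4.59 and in EHEB by 2.20 and fell there with ibrutinib (-3.41 and -1.51). In MEC1 BCL6 rose with fludarabine (0.63) and fell with ibrutinib (-1.03) and idelalisib (-0.83), and idelalisib gave no call for it in JVM2 or EHEB. CCND2, which encodes cyclin D2, fell with idelalisib in every line (-0.69, -0.56 and -1.36). In MEC1 CCND2 rose after fludarabine (1.56) and ibrutinib (0.39), in JVM2 it rose after fludarabine (0.31), and it fell in EHEB with fludarabine (-0.53) and ibrutinib (-0.66), which makes 3 comparisons higher and 5 lower.

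Of the 8 PIM substrates, CDKN1B, which encodes the cell cycle inhibitor p27, was called lower in 8 comparisons and higher in 1, with idelalisib in EHEB (0.27). MAP3K5, a stress-activated kinase, fell with fludarabine in every line (-0.59, -0.39 and -0.84) and rose with both kinase inhibitors in every line. EIF4EBP1, a repressor of translation initiation, was called lower in 7 comparisons and higher in none.

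**Figure D5:**
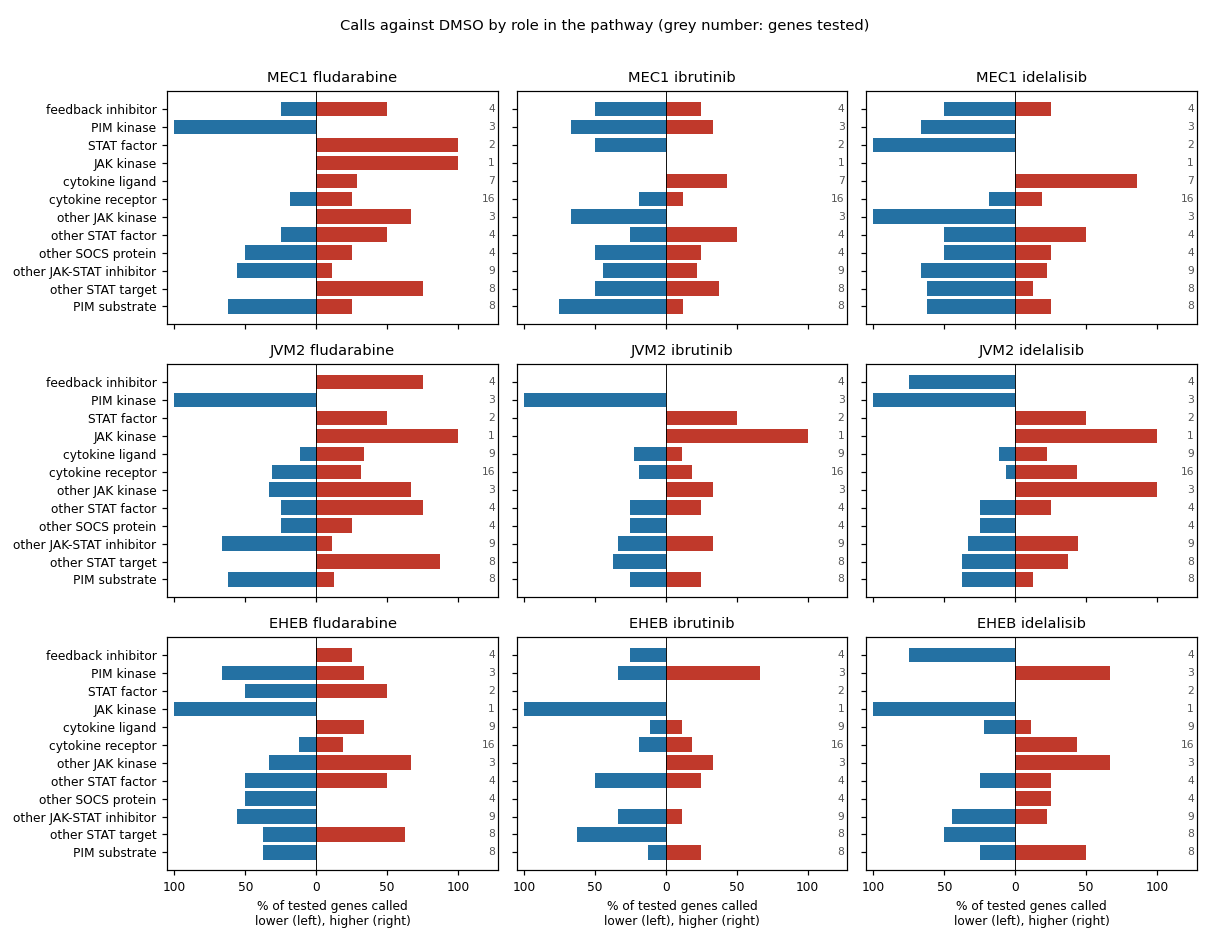
Share of tested genes called lower (blue, left) and higher (red, right) against DMSO, in percent, for the 4 roles of the 10 genes and 8 further lists of the pathway, with 1 panel per line and drug and the number of genes tested in grey. The PIM kinases are all lower with fludarabine in MEC1 and JVM2, and the other STAT targets are lower but not higher with both inhibitors in EHEB.

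How the 10 genes varied together was described by Pearson's r over the 36 libraries, on log2 CPM centred on each line's mean, with no test because libraries of a group and line share their treatment. The lines were not scaled to the same spread, so a line with a wide range weighs most in r. For SOCS3 that line is MEC1, where single libraries had counts of 0 to 10 with ibrutinib and 0 to 6 with idelalisib. The part of these low counts in r was not tested. The closest pair was SOCS3 and CISH (r = 0.808), followed by PIM1 and PIM2 (r = 0.749). SOCS3 and PIM2 ran in opposite directions (r = -0.728), as did SOCS1 and STAT3 (r = -0.703). Among 11917 other genes the one most like SOCS3 was SPRED2 (r = 0.948), an inhibitor of the RAS-ERK pathway, and the one most like PIM1 was PIK3CA (r = 0.944), a catalytic subunit of PI3K. The others were TRIM33 for STAT3 (r = 0.947), TIFA for PIM2 (r = 0.927), ARID3A for PIM3 (r = 0.916), APEX2 for CISH (r = 0.912), SELENOI for SOCS1 (r = 0.886), SESN3 for SOCS2 (r = 0.839), DENND5B for JAK2 (r = 0.838) and TFIP11 for STAT5A (r = 0.799).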

How the data were processed

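The deposited table held estimated counts per gene symbol, which the authors made with Trimmomatic, HISAT2 2.1 on GRCh38 and StringTie 1.3.4 (edgeR 3.22.5 is also listed in the submitters' processing notes). The sources used here do not give the strand setting or annotation release. The counts were whole numbers, and were used as deposited. The entry with a blank symbol held 0.00384% of counts and was left out. Each line was fitted on its own 12 libraries with edgeR 4.0.16 in R 4.3.3 (filterByExpr with a minimum count of 10, TMM, quasi-likelihood F-tests, prior count 2, Benjamini-Hochberg adjustment over all genes, calls at 0.05), with 17516 (MEC1), 17508 (JVM2) and 17748 (EHEB) genes tested. Differences between lines in a drug's response were interaction F-tests with 2 degrees of freedom on the 18 libraries concerned. The scripts were tested on simulated counts. Replicate pairs differed by 10.6 to 20.9 times the sampling variance, so no library was counted as a duplicate.

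The 10 genes and the pathway lists were chosen with earlier results of these data known. The text names all 10, at most 3 genes per list (those called in the most of the 9 comparisons with DMSO, at least 5, ties by mean size), STAT5B always, and for each of the 10 the gene with the highest r. The other receptor genes are named with their calls only. Alternatives were DESeq2 1.42.0, limma-voom 3.58.1, no TMM, no filter, a mean CPM of at least 5, only the 6 libraries compared, a joint fit of 36 libraries, each library left out in turn and, chosen after seeing the data, counts divided by 8/3. Sequences and annotation came from RefSeq GRCh38.p14 and GENCODE 44. Figures were drawn with matplotlib 3.10.9. Some genes of the pathway and marker lists are not reported here.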

Additional observations from a re-analysis of the deposited data

Results flagged for a closer look

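The response to a drug differed between MEC1, JVM2 and EHEB for most of the 10 genes, by an edgeR interaction test with p-values adjusted over all genes. With fludarabine the adjusted p-values were 2.47e-07 for SOCS1, 0.00192 for SOCS2, 3.8e-07 for SOCS3, 0.0241 for CISH, 2.58e-06 for PIM1, 2.27e-06 for PIM2, 9.84e-08 for PIM3, 1.43e-07 for STAT3 and 1.99e-09 for JAK2. With ibrutinib they were 0.00011 for SOCS1, 5.84e-05 for SOCS3, 0.0413 for CISH, 3.02e-07 for PIM1, 5.27e-06 for PIM2, 7.48e-05 for PIM3, 2.07e-06 for STAT3 and 0.00107 for JAK2. With idelalisib they were 3.75e-06 for SOCS1, 4.41e-05 for SOCS3, 9.46e-13 for PIM1, 5.29e-10 for PIM2, 2.46e-07 for PIM3, 9.55e-11 for STAT3, 0.0244 for STAT5A and 5.15e-05 for JAK2. Called responses of opposite sign in different lines were found with fludarabine for SOCS1, PIM3, STAT3 and JAK2, with ibrutinib for PIM1, PIM2, STAT3 and JAK2, and with idelalisib for SOCS1, PIM1, PIM2, STAT3 and JAK2. The tests of CISH lost their calls under several alternatives, up to an adjusted p of 0.0887 for fludarabine (without the first EHEB DMSO library) and 0.108 for ibrutinib (without the second MEC1 ibrutinib library). That of STAT5A for idelalisib reached 0.0764 with limma-voom, and that of SOCS2 for fludarabine 0.162 with limma-voom. Exposure times differed between the lines, so line and time cannot be told apart.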

How the results depend on the processing

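Over the alternatives other than leaving out a library, 1728 values of single genes kept their side of the threshold, 28 lost a call, 21 gained one and 2 reversed. A change of sign was counted as reversed only where the value was called in either fit. Interaction tests, which have no direction, are among these values. With a mean CPM of at least 5 (which removes the low-level genes from the test), genes of the set called in MEC1 went from 5 to 3 higher with fludarabine, from 5 to 3 lower with ibrutinib, from 1 to 2 higher with idelalisib (PIM2 added), and from 7 to 4 lower in idelalisib against fludarabine. Without TMM scaling, idelalisib against ibrutinib in MEC1 gave 5 genes of the set called, 5 of them lower, in place of 3, and 4345 of all genes in place of 2694. On only the 6 libraries compared it gave 1504 of all genes. Without TMM scaling, PIM1 in MEC1 reversed from 0.05 to -0.291 (adjusted p = 0.0103) and STAT3 in JVM2 from 0.03 to -0.0896 (adjusted p = 0.049), in idelalisib and ibrutinib against fludarabine respectively. Without TMM the median of all genes moved by 0.243 (fludarabine in MEC1), 0.195 (JVM2) and 0.104 (EHEB) on the log2 scale, and by -0.337 for idelalisib against fludarabine in MEC1. The higher share of calls went from 39.1% to 11.3% for idelalisib against ibrutinib in MEC1, and against fludarabine from 49.5% to 36.3% (ibrutinib, MEC1), 47.8% to 27.9% (idelalisib, MEC1), 50.9% to 37.5% (ibrutinib, JVM2) and 50.3% to 38.3% (idelalisib, JVM2). With no filter on low counts, 0 genes of the set were lower in vehicle-treated JVM2 than in MEC1, in place of 1 (PIM1, adjusted p = 0.0567). Except where stated, the cause was not tested.

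Leaving out 1 library gave 3 to 5 genes of the set called higher with fludarabine in MEC1, 0 to 1 called lower in vehicle-treated JVM2 against MEC1, and 1376 to 2885 of all genes called in idelalisib against ibrutinib in MEC1, lowest without the first ibrutinib library. Of single-gene values, 2875 kept their side of the threshold, 85 lost a call and 10 gained one. No paired analysis was possible because the groups share no replicate number. Depth limits SOCS3 in MEC1 with the inhibitors, where the summed counts were 16 and 12, and SOCS2 and CISH in MEC1. Each of the 3 libraries per group is assumed to vary alike within a line. All comparisons of a kinase inhibitor with DMSO or with fludarabine cross the break in library numbering, and that break cannot be told apart from the drug.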
